A study of Mus musculus with 6 samples.

Results

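The interferon-stimulated genes described here are 51 genes that mouse cells switch on in response to type I or type II interferon, without those of antigen presentation. They were chosen by symbol from general knowledge, with earlier results of these data known. The shares of members set beside all genes below carry that choice. Each of the 51 symbols has a row among the 22087 genes of the deposited table. RNA came from dorsal root ganglia, which house the cell bodies of the neurons of touch and pain, in mice aged 3 months, and its poly(A) fraction was sequenced. In the control group both Kif2a alleles were floxed and no Cre was named (genotype Kif2a fl/fl, 3 libraries). The conditional knockout had the same floxed alleles and Avil Cre (Kif2a fl/fl; Avil Cre, 3 libraries). Kif2a encodes a kinesin that takes microtubules apart from their ends. Avil, the gene of advillin, is active in sensory neurons, so Cre acts mainly in those cells and leaves Kif2a intact in most glia, vessels, connective tissue and immune cells of the ganglion. Whether a group's libraries are 3 different animals is not in the labels. Each p below sets the difference between the groups against the spread among the libraries of a group, and that spread may be technical.

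Cells release type I interferons after they sense viral or misplaced nucleic acid, and T cells and NK cells release the type II interferon, interferon gamma. Type I interferon acts through a complex that holds the transcription factors Stat2 and Irf9 and binds the interferon-stimulated response element (ISRE), while interferon gamma acts on the gamma-activated site (GAS) and through induced Irf1. The genes that follow encode sensors, transcription factors, antiviral effectors, GTPases that attack the vacuoles of intracellular microbes and chemokines that attract lymphocytes, and in nerve tissue neurons, glia and immune cells can each make them.

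The level of these genes differed between the libraries of the conditional knockout. The group means differed as well, but no member passed the test between the groups. Conditional knockout library 1 was high, library 3 was intermediate, and library 2 lay near the control libraries. In CPM (read counts scaled to the size of each library, with TMM factors), the 51 genes together made up 745, 761 and 766 CPM in control libraries 1 to 3. In conditional knockout libraries 1 to 3 they made up 1220, 744 and 998 CPM. The 3 control sums lie close together, and conditional knockout library 2 fell just below them. Of the 50 members that could be tested, 48 were higher in the conditional knockout and 2 were lower, and the median log2 fold change was 0.60. Over all 17759 tested genes the median was 0.01 and 51.6% were higher. With edgeR's quasi-likelihood test and a Benjamini-Hochberg adjusted p under 0.05, 0 of the 50 passed, beside 4 of all tested genes (0.0225%), each of those 4 lower in the conditional knockout.

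The control regions of several members carry the elements named above, and 5 are shown, each the member of smallest p with a match among the IFIT genes, the ISG15 and PARP system, the guanylate-binding proteins, the immunity-related GTPases and the chemokines. They are the 250 bases before the transcription start in RefSeq on GRCm38.p6, written 5′ to 3′ in the direction of the gene. Capitals mark the ISRE core, searched as GAAANNGAAA, and the GAS core, searched as TTCNNNGAA, where N is any base. Both strands were searched, so the ISRE core also appears in its reverse complement, and matches may overlap. The windows are chr19:34640639-34640888 (plus strand) for Ifit1, chr4:156200819-156201068 (minus) for Isg15, chr3:142530086-142530335 (plus) for Gbp7, chr11:49064213-49064462 (minus) for Tgtp2 and chr5:92348890-92349139 (minus) for Cxcl10.
Ifit1: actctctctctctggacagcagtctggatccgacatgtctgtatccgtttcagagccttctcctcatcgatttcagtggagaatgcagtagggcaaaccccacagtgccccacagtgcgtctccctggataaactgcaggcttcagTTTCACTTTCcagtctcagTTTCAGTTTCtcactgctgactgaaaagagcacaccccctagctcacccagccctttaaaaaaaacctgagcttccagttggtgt
Isg15: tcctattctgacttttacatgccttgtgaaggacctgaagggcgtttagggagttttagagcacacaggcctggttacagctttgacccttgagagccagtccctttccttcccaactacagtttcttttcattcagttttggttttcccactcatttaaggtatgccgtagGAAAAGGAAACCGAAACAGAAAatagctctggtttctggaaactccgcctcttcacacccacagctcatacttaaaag
Gbp7: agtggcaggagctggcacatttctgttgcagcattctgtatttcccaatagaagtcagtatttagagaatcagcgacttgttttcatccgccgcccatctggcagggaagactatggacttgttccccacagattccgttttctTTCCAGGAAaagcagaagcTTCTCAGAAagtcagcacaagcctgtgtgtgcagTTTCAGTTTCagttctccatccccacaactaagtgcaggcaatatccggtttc
Tgtp2: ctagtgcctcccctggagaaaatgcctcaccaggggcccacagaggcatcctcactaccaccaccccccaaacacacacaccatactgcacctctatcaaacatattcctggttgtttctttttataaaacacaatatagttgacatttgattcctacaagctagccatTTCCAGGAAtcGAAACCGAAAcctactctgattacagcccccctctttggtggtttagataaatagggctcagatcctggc
Cxcl10: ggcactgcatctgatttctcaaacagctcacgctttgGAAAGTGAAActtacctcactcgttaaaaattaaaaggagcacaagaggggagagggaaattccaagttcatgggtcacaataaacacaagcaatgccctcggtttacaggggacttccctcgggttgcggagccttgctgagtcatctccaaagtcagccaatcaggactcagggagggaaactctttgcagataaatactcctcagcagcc

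In these windows the ISRE core of Ifit1 began 104 and 85 bases before the start, and that of Isg15 began at 78, 72 and 66 bases, 3 overlapping matches in 1 run of capitals. Gbp7 had a GAS core at 106 and at 87 bases and an ISRE core at 53 bases. The GAS core of Tgtp2 at 81 bases lay directly before its ISRE core at 70 bases, and the single ISRE core of Cxcl10 began 213 bases before the start. RefSeq windows were matched for 37 of the 51 members. Of these, 18 (48.6%) held an ISRE core, against 936 of 27025 genes with a window (3.46%). A GAS core was found in 13 (35.1%), against 2197 genes (8.13%), and 24 (64.9%) held at least 1 of them, against 11.1% of all genes. A match describes the letters in the window and no binding was measured.

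**Figure D1:**
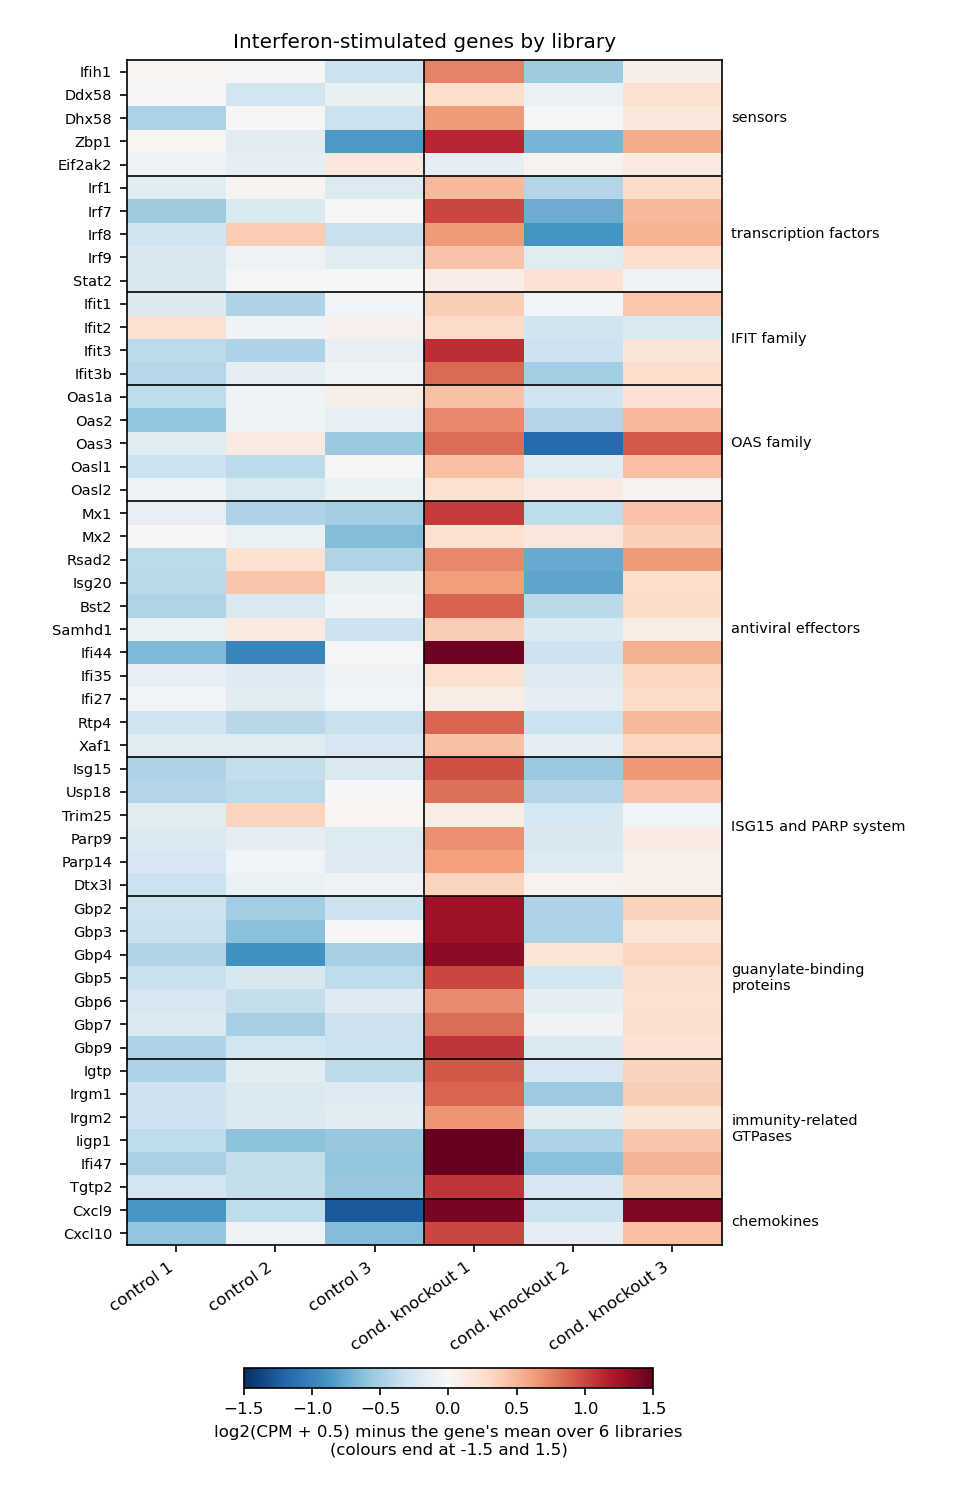
Each row is 1 of the 51 interferon-stimulated genes, grouped by role, and each column is 1 library; colour gives log2(CPM + 0.5) minus the mean of the gene over the 6 libraries. The column of conditional knockout 1 is the reddest, conditional knockout 3 is paler red, and conditional knockout 2, like the 3 control columns, is mostly blue or pale.

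Only the filter on low counts kept a member out of the test. Gbp6, a guanylate-binding protein, had 5, 4 and 8 counts in control and 20, 7 and 12 counts in the conditional knockout. Of the tested members, Cxcl9 alone reached the filter's minimum in fewer than 3 control libraries, so it was tested because of its level in the conditional knockout. Without Cxcl9 the median log2 fold change of the remaining 49 was also 0.60. Per kilobase of exon, Ifi27 had the highest level, at 98.9 CPM per kb in control and 111 in the conditional knockout, followed in control by Ifi35 at 11.9, Eif2ak2 at 8.86 and Bst2 at 8.84. The lowest levels per kilobase in control were those of Gbp6 at 0.0371 CPM per kb and Cxcl9 at 0.122 CPM per kb.

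Sensors of foreign or misplaced nucleic acid had a median log2 fold change of 0.30 over 5 genes. Dhx58 encodes LGP2, a helicase that tunes the other RNA sensors. It was at 2.55, 3.73 and 2.88 CPM in control libraries and at 6.10, 3.68 and 4.24 CPM in conditional knockout libraries. Conditional knockout libraries 1 and 3 lay above the control range and library 2 lay inside it, for a log2 fold change of 0.61 ± 0.27 (SE, edgeR p 0.0483, adjusted p 1.0). Ddx58 encodes RIG-I, the sensor of RNA with uncapped ends, and was at 36.0, 29.8 and 33.5 CPM in control libraries and 43.4, 33.6 and 42.4 CPM in conditional knockout libraries, with the same 2 libraries above the control range. That is 0.27 ± 0.14 on the log2 scale (edgeR p 0.0827). Eif2ak2, the kinase PKR that halts translation on binding double-stranded RNA, was at 43.9, 41.1 and 50.8 CPM in control libraries and at 41.5, 47.2 and 50.2 CPM in conditional knockout libraries. Here the groups overlapped throughout, and the log2 fold change was 0.03 ± 0.12. Ifih1 (MDA5, a sensor of long double-stranded RNA) was at 0.30 ± 0.31 on the log2 scale. For Zbp1, which binds left-handed nucleic acid and can trigger cell death, the log2 fold change was 0.92 ± 0.51, and its level in conditional knockout library 1 was 4.28 times that in library 2.

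The transcription factors of the response had the same median, 0.30 over 5 genes, and 0 of them reached an unadjusted p under 0.05. Irf9, the DNA-binding subunit of the ISRE complex, was at 22.0, 24.6 and 22.8 CPM in control libraries and at 35.2, 22.8 and 31.0 CPM in conditional knockout libraries. Libraries 1 and 3 of the conditional knockout were above the control range and library 2 was within it, for a log2 fold change of 0.36 ± 0.16 (edgeR p 0.0541). Irf7, which amplifies the production of type I interferon, was at 3.46, 4.43 and 5.27 CPM in control libraries and at 11.0, 2.94 and 7.53 CPM in conditional knockout libraries. Library 2 was the lowest of the 6 and library 1 the highest, and the log2 fold change was 0.70 ± 0.43 (edgeR p 0.145). Stat2, the partner of Irf9 in the complex, departed from this order: at 40.1, 46.3 and 47.7 CPM in control libraries and 50.8, 55.0 and 45.8 CPM in conditional knockout libraries, it was the only tested member highest in conditional knockout library 2. Its log2 fold change was 0.18 ± 0.12. Irf1, the factor induced by interferon gamma, stood at 0.27 ± 0.22, and Irf8, a factor of macrophages and dendritic cells, at 0.30 ± 0.42 on the log2 scale.

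Among the IFIT genes, which encode RNA-binding proteins that block translation of viral RNA and lie next to each other on chromosome 19, the median log2 fold change was 0.53 over 4 genes. Ifit1 (chromosome 19, 34640871 to 34650009), whose protein binds RNA with incomplete caps, was at 17.1, 14.4 and 19.4 CPM in control libraries and at 26.1, 19.4 and 26.6 CPM in conditional knockout libraries. The groups did not overlap, although conditional knockout library 2 stood next to control library 3, and the log2 fold change was 0.50 ± 0.17 (edgeR p 0.0151, adjusted p 1.0). Ifit3, which binds and stabilises Ifit1 in human cells, was at 5.20, 4.92 and 6.33 CPM in control libraries and at 15.6, 5.50 and 8.0 CPM in conditional knockout libraries. Library 1 carried most of this difference, with library 2 inside the control range, and the log2 fold change was 0.82 ± 0.36 (edgeR p 0.0506). Its near copy Ifit3b, whose reads may be split with Ifit3, was at 0.55 ± 0.35. Ifit2 was at 26.4, 21.4 and 23.5 CPM in control libraries and at 27.5, 18.2 and 19.1 CPM in conditional knockout libraries, so that libraries 2 and 3 were below the control range and library 1 above it. With a log2 fold change of -0.14 ± 0.18, Ifit2 was 1 of the 2 members with a negative value.

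The OAS family makes oligoadenylates that activate the RNA-degrading enzyme RNase L, or consists of relatives that have lost that activity. Its 5 members had a median log2 fold change of 0.60. Oasl2 was at 49.1, 43.7 and 48.0 CPM in control libraries and at 60.4, 55.9 and 53.0 CPM in conditional knockout libraries. The groups did not overlap and library 2 was among the high libraries, with a log2 fold change of 0.27 ± 0.11 (edgeR p 0.0330). Oasl1, which represses translation of Irf7 in mice, was at 1.87, 1.76 and 2.42 CPM in control libraries and at 3.53, 2.11 and 3.55 CPM in conditional knockout libraries. Only library 2 overlapped with control, and the log2 fold change was 0.60 ± 0.29 (edgeR p 0.0693). Oas1a, Oas2 and Oas3, the enzymes that make oligoadenylates, had log2 fold changes of 0.30 ± 0.29, 0.70 ± 0.38 and 0.77 ± 0.62. Oas3 had the highest ratio of conditional knockout library 1 to library 2 of all 51 members, 6.13, with library 2 at 0.373 times the control mean.

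The 11 other antiviral effectors had a median log2 fold change of 0.53, and each was above the control range in conditional knockout library 1. Rtp4, an interferon-induced antagonist of viruses that was first known as a receptor transporter, was at 7.57, 6.98 and 7.40 CPM in control. In the conditional knockout it was at 17.7, 7.49 and 13.6 CPM, which puts library 2 inside the narrow control range, and the log2 fold change was 0.82 ± 0.28 (edgeR p 0.0188, adjusted p 1.0). Xaf1, which promotes cell death by opposing the inhibitor XIAP, was at 16.2, 16.1 and 15.3 CPM in control libraries and at 25.2, 16.6 and 23.1 CPM in conditional knockout libraries. Its groups did not overlap, with library 2 just above control, for a log2 fold change of 0.44 ± 0.16 (edgeR p 0.0242). Ifi27, a small membrane protein, was at 150, 137 and 149 CPM in control libraries and at 166, 139 and 187 CPM in conditional knockout libraries. The most abundant member thus had one of the smaller differences, 0.17 ± 0.13 on the log2 scale.

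Other effectors ranged from 0.14 to 1.38 on the log2 scale. The largest was Ifi44 at 1.38 ± 0.51 (edgeR p 0.0278), with library 1 at 3.84 times library 2. Mx1, a dynamin-like GTPase that traps viral particles, was at 1.14 ± 0.46 and its relative Mx2, which GENCODE annotates as a polymorphic pseudogene, at 0.53 ± 0.24. Mx2 was one of the members whose groups did not overlap, and its libraries 1 and 2 of the conditional knockout were close, at a ratio of 1.05. Bst2, the tether that holds budding virus at the cell surface, was at 0.61 ± 0.31, and Rsad2, the viperin enzyme that makes a chain-terminating nucleotide, was at 0.53 ± 0.41. Ifi35 was at 0.26 ± 0.15, Samhd1, which depletes nucleotides needed for viral replication, was at 0.18 ± 0.17, and the exonuclease Isg20 was at 0.14 ± 0.38.

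ISG15 is a ubiquitin-like protein that is attached to other proteins during the response, and the genes of its system and of ADP-ribosylation had a median log2 fold change of 0.41 over 6 members. Isg15 itself (chromosome 4, 156199424 to 156200818) was at 4.83, 5.27 and 5.78 CPM in control libraries and at 13.8, 4.51 and 11.1 CPM in conditional knockout libraries. Libraries 1 and 3 were far above the control range while library 2 was the lowest of the 6, and the log2 fold change was 0.89 ± 0.37 (edgeR p 0.0410, adjusted p 1.0). Usp18, which removes ISG15 and restrains the type I receptor, was at 0.70 ± 0.36. Dtx3l, a ubiquitin ligase that works with Parp9, was at 10.5, 12.4 and 12.8 CPM in control libraries and at 16.9, 13.8 and 14.0 CPM in conditional knockout libraries, without overlap, for a log2 fold change of 0.32 ± 0.15 (edgeR p 0.0629). Parp9 and the mono-ADP-ribosyltransferase Parp14 were at 0.45 ± 0.23 and 0.37 ± 0.20. Exons of Parp9 and Dtx3l overlap on opposite strands, and whether reads were counted by strand is not given, so reads there cannot be assigned to one of the pair with certainty. Trim25, the ligase that modifies RIG-I, was at 19.5, 28.2 and 22.7 CPM in control libraries and at 24.1, 18.5 and 21.6 CPM in conditional knockout libraries. Its groups overlapped, and it was the other member with a negative log2 fold change, -0.13 ± 0.16.

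The guanylate-binding proteins, large GTPases that coat and break the vacuoles of microbes, had a median log2 fold change of 0.85 over the 6 of 7 that were tested. Gbp4 (chromosome 5, 105115767 to 105139586) was at 5.56, 3.91 and 5.33 CPM in control libraries and at 20.4, 8.98 and 9.80 CPM in conditional knockout libraries. Each conditional knockout library was above each control library, library 2 included, for a log2 fold change of 1.40 ± 0.33 (edgeR p 0.00269, adjusted p 0.825). DESeq2 gave Gbp4 an adjusted p of 0.0121. Exons of Gbp4 overlap those of Gbp9 and Gbp8 on the same strand, so part of its reads may belong to them, and Gbp9 was at 0.85 ± 0.31, also without overlap between groups. Gbp7 (chromosome 3, 142530342 to 142550149) was at 17.7, 14.5 and 16.6 CPM in control libraries and at 37.5, 19.9 and 24.6 CPM in conditional knockout libraries. It too was higher in each conditional knockout library, with a log2 fold change of 0.75 ± 0.22 (edgeR p 0.00956, adjusted p 1.0). Gbp2, the member of the family with the highest level per kilobase, was at 16.8, 14.5 and 16.8 CPM in control libraries and at 51.2, 15.1 and 26.7 CPM in conditional knockout libraries. Here library 2 was inside the control range and library 1 was 3.38 times as high as library 2, and the log2 fold change was 0.95 ± 0.41 (edgeR p 0.0571). Gbp3 and Gbp5, neighbours of Gbp7 and Gbp2 on chromosome 3, were at 0.84 ± 0.45 and 0.78 ± 0.31.

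**Figure D2:**
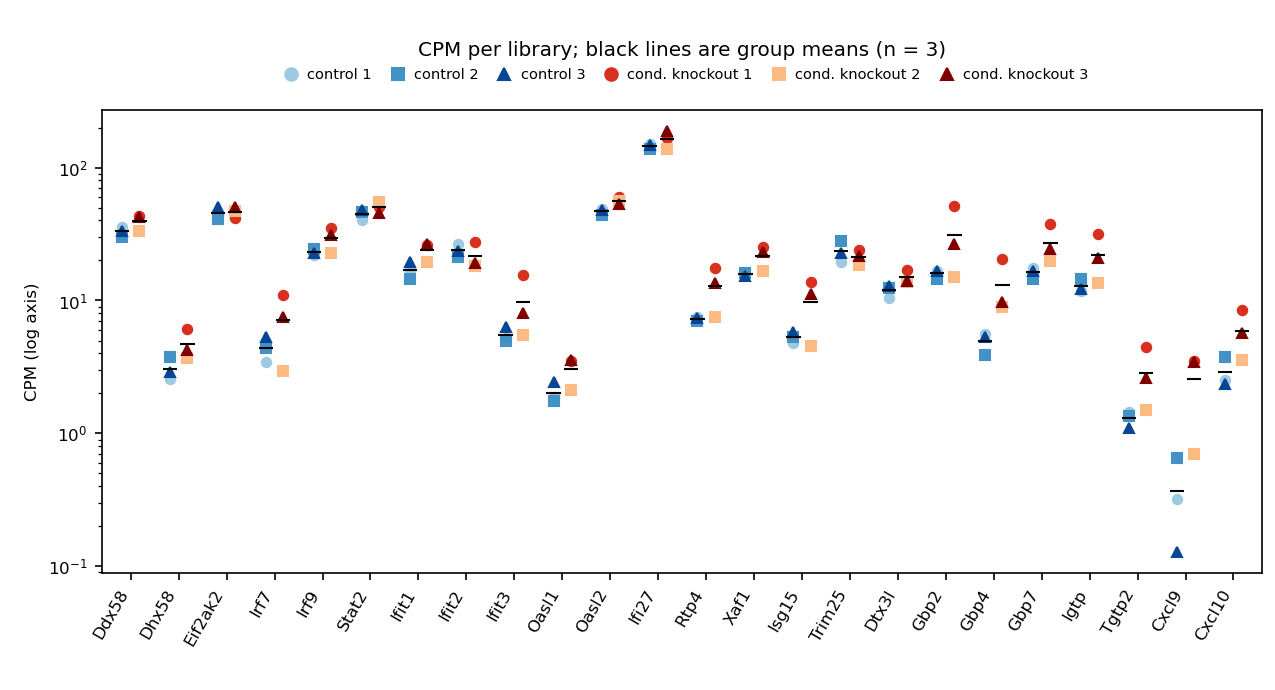
CPM on a log axis of the 24 members described library by library, with control libraries in blue at the left and conditional knockout libraries in red and orange at the right of each gene; black lines are group means (n = 3). The orange square of conditional knockout 2 is within the control range for 11 of the 24 genes, above it for 9, such as Gbp4 at 8.98 CPM, and below it for 4, such as Isg15 at 4.51 CPM. The 24 were picked in part by smallest p between the groups, so their counts carry that selection. Over all 50 tested members these positions hold for 46.0%, 24.0% and 30.0%, and over all tested genes for 37.1%, 29.5% and 33.4%.

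The immunity-related GTPases, which act with the guanylate-binding proteins on vacuoles, had a median log2 fold change of 0.95 over 6 genes. Tgtp2 (chromosome 11, 49057194 to 49064206) was at 1.46, 1.36 and 1.10 CPM in control libraries and at 4.49, 1.49 and 2.61 CPM in conditional knockout libraries. The groups did not overlap, but library 2 exceeded control library 1 by very little, and the log2 fold change was 1.13 ± 0.40 (edgeR p 0.0194, adjusted p 1.0). Tgtp2 has a near-identical copy that could share its reads. Igtp, also called Irgm3, a regulator that keeps the effector GTPases off the cell's own membranes, was at 11.7, 14.5 and 12.3 CPM in control libraries and at 31.7, 13.6 and 20.8 CPM in conditional knockout libraries. Library 2 was inside the control range, and the log2 fold change was 0.78 ± 0.28 (edgeR p 0.0253). The related regulators Irgm1 and Irgm2 were at 0.60 ± 0.32 and 0.51 ± 0.20, the second without overlap between groups and with exons that overlap those of Igtp. Iigp1, an effector of this family, was at 1.36 ± 0.51 and Ifi47 at 1.31 ± 0.53 on the log2 scale, with conditional knockout library 1 at 4.49 and 5.05 times library 2.

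Cxcl9 and Cxcl10 encode chemokines that attract T cells and NK cells through the receptor Cxcr3. Cxcl9 (chromosome 5, 92321347 to 92328079), whose induction depends mainly on interferon gamma, had 7, 15 and 4 counts in control and 77, 17 and 81 counts in the conditional knockout. In CPM these are 0.319, 0.658 and 0.129 in control and 3.53, 0.703 and 3.47 in the conditional knockout, so libraries 1 and 3 were alike and library 2 was just above control library 2. Its log2 fold change of 2.83 ± 0.74 was the highest of the 17759 tested genes, with an edgeR p of 0.00529 (adjusted p 0.946). Because Cxcl9 passed the filter through its level in the conditional knockout, this rank and p carry that selection. DESeq2 gave Cxcl9 an adjusted p of 0.0221. Cxcl10, on the same chromosome (92346638 to 92348889), was at 2.51, 3.77 and 2.36 CPM in control libraries and at 8.48, 3.56 and 5.65 CPM in conditional knockout libraries. Library 2 was within the control range, and the log2 fold change was 1.03 ± 0.34 (edgeR p 0.0145, adjusted p 1.0). Exons of Cxcl10 overlap those of Art3 and exons of Irf7 those of Phrf1, on the opposite strand. Their reads are uncertain as for Parp9 and Dtx3l. Exons of Irf9 overlap those of Rnf31 and exons of Ifi47 those of Olfr56 on the same strand, so part of their reads may belong to these neighbours.

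**Figure D3:**
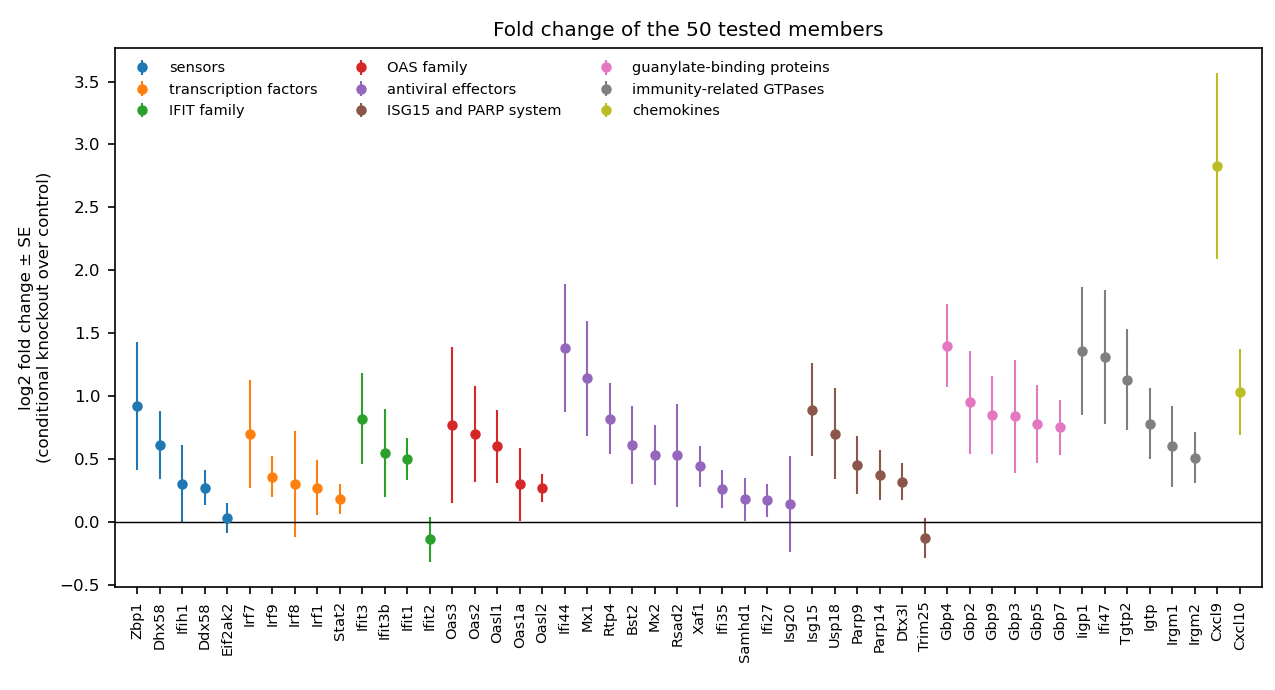
Log2 fold change of conditional knockout over control with its standard error from edgeR for the 50 tested members, coloured by role and sorted within it. Points lie above 0 except Ifit2 at -0.14 and Trim25 at -0.13, and Cxcl9 at 2.83 lies farthest from 0.

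At an unadjusted edgeR p under 0.05, 19 of the 50 tested members (38.0%) were higher in the conditional knockout, against 1.58% of all tested genes, and 0 were lower, against 3.09%. The 19 were Dhx58, Ifit1, Oasl2, Mx1, Ifi44, Rtp4, Xaf1, Isg15, Gbp4, Gbp5, Gbp7, Gbp9, Igtp, Irgm2, Iigp1, Ifi47, Tgtp2, Cxcl9 and Cxcl10. Limma-trend called 0 members after adjustment, and DESeq2 called 2 of 50, Gbp4 and Cxcl9, where it called 0.0424% of genes as higher. For 11 of the 50 (22.0%) all 3 conditional knockout libraries were above all 3 control libraries, against 3.96% of tested genes, and for 0 they were all below, against 4.70%. Without Cxcl9, which passed the filter through the conditional knockout, this held for 10 of 49 members (20.4%). At the unadjusted edgeR p, 18 of those 49 (36.7%) were higher. All these shares carry the choice of the members, which was made with earlier results of these data known. With 3 against 3 libraries the exact two-sided permutation p of a single gene cannot be below 0.1. In the authors' deposited table, 12 of the 51 members had a false discovery rate under 0.05 and a fold of at least 1.5 upward, against 0.24% of its genes, and 0 downward. Those 12 were Ifi44, Rtp4, Gbp2, Gbp4, Gbp7, Gbp9, Igtp, Iigp1, Ifi47, Tgtp2, Cxcl9 and Cxcl10, and the authors' deposited table was made from the same counts.

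These counts moved with the libraries included. Without conditional knockout library 1, 9 of 50 members were higher at an unadjusted p under 0.05 (2.63% of all genes were) and the median log2 fold change of the members was 0.30. Leaving out library 2 gave 43 of 51 (4.28%) and a median of 0.88, and the smallest adjusted p was 0.0738, for Isg15, so that 0 members passed. When library 3 was left out, 11 of 50 (1.26%) were higher and the median was 0.57. The count was 8 of 51 (1.36%) without control library 1, 10 of 51 (1.43%) without control library 2 and 6 of 51 (0.818%) without control library 3. Without 1 control library the medians were 0.52, 0.62 and 0.63. Gbp4 was at 0.94 without conditional knockout library 1, and Cxcl9 ranged from 2.38 to 3.56 over the 6 fits.

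**Figure D4:**
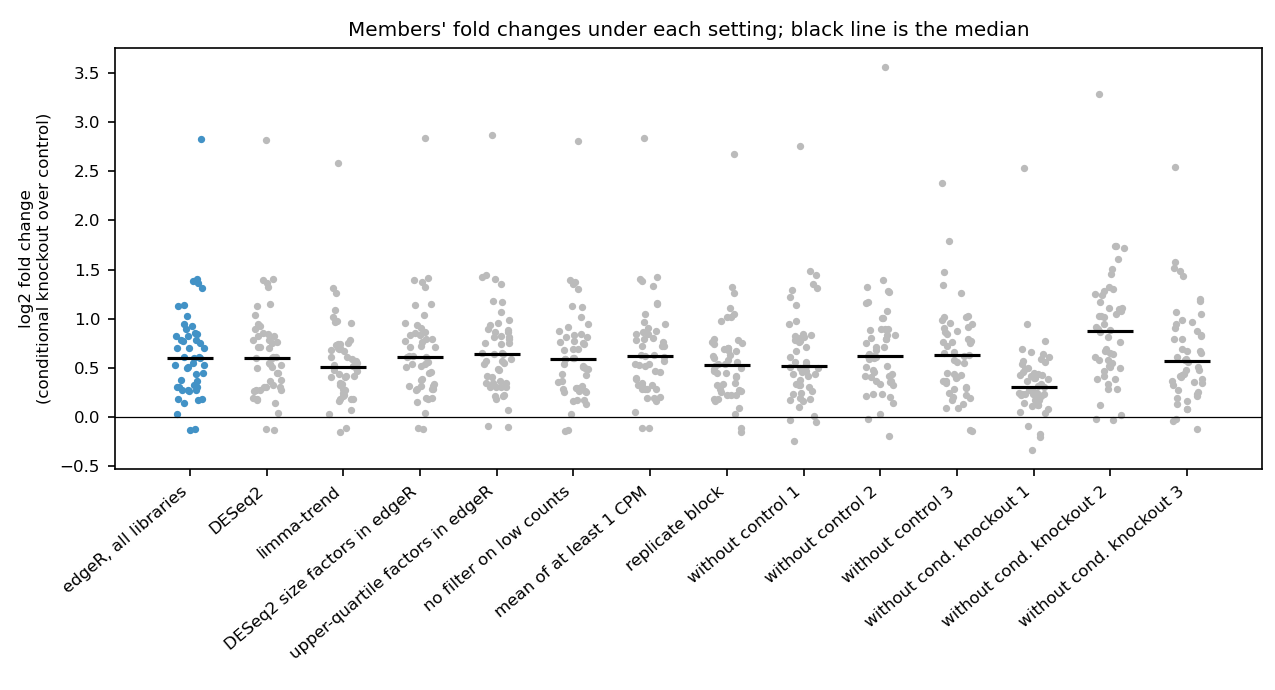
Log2 fold changes of the tested members (1 point per gene) under edgeR with all libraries, other tests, scalings and filters, and with each library left out; black lines are medians. The median is 0.60 with all libraries, drops to 0.30 without conditional knockout 1 and is 0.88 without conditional knockout 2.

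The order of the 3 conditional knockout libraries was shared across most of the members, which were chosen with earlier results of these data known. Library 1 was highest, library 3 next and library 2 lowest of the 3 in 41 of the 50 tested members (82.0%), against 22.4% of all tested genes. In 44 members (88.0%) libraries 1 and 3 both exceeded every control library, against 12.4% of genes, and in 33 (66.0%) these were the only ones to do so, against 8.46%. Library 2 was within the control range in 23 members, above it in 12 and below it in 15. These are 46.0%, 24.0% and 30.0% of the members, against 37.1%, 29.5% and 33.4% of all tested genes. A score per library, the mean over the tested members of log2(CPM + 0.5) minus the gene's own mean, was -0.29, -0.21 and -0.25 in control and 0.74, -0.31 and 0.33 in the conditional knockout. Its SD (n = 3) was 0.04 in control and 0.53 in the conditional knockout. Per gene, the SD of log2(CPM + 0.5) was larger in the conditional knockout in 46 of 50 members (92.0%), against 69.1% of all genes. The median SD of the members was 0.17 in control and 0.61 in the conditional knockout, against 0.14 and 0.22 over all genes.

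The members most closely tied to interferon gamma in general knowledge (Irf1, Irf8, the guanylate-binding proteins, the immunity-related GTPases and both chemokines, 17 genes) were set beside the other 34. Of the 16 gamma-inducible members tested, 16 were higher, the median log2 fold change was 0.85, and 11 had an unadjusted p under 0.05. Among the 34 others 32 were higher, with a median of 0.48, and 8 had an unadjusted p under 0.05. Over all tested genes 51.6% were higher, and 1.58% were higher at an unadjusted p under 0.05. Scores of the gamma-inducible members were -0.39, -0.31 and -0.42 in control and 1.07, -0.34 and 0.40 in the conditional knockout. For the others they were -0.25, -0.16 and -0.18 in control and 0.59, -0.30 and 0.29 in the conditional knockout. Both sets kept the order of the libraries, and the difference between them was not tested. The members and their roles were chosen with earlier results of these data known. The gamma-inducible set also holds Cxcl9, which was tested because of its level in the conditional knockout. An ISRE core was present in 9 of the 13 gamma-inducible members with a RefSeq window and in 9 of the 24 others, and a GAS core in 7 and 6. The 18 members with an ISRE core had a median log2 fold change of 0.76, and the 19 with a window and no such core had 0.30. Since 9 of those 18 are gamma-inducible, this split overlaps the one above, and its difference was not tested.

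Genes that make, receive or pass on the interferon signal, but are not among the 51 members, were tested in the same fit. Of 51 such genes listed, 21 are interferon ligands, interferon beta and gamma among them. Of these ligands, 0 matched by symbol a gene with counts, so they could not be tested. The 30 others were tested, and 0 passed edgeR and 0 had an unadjusted p under 0.05. Their log2 fold changes ranged from -0.17 to 0.41 with a median of 0.075, and 20 of 30 were higher. Among the receptors, Il10rb, a shared chain of interferon lambda and interleukin receptors, was at -0.13 ± 0.12 and the interferon lambda receptor Ifnlr1 at 0.29 ± 0.37. Tyk2, a kinase of the type I receptor, was at 0.09 ± 0.13. Of the inhibitors, Pias1 was at 0.13 ± 0.12 and the phosphatase Ptpn11 at -0.12 ± 0.13. Sting1, the adaptor of cytosolic DNA sensing, was at 0.40 ± 0.22 and the RNA sensor Tlr3 at 0.22 ± 0.16.

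The libraries also differed in markers of cell types, with values that moved in part with the members. Summed over 11 macrophage markers, all detected, the level was 346, 544 and 453 CPM in control libraries and 722, 247 and 637 CPM in conditional knockout libraries, with 8 of 11 higher and 0 called. The 10 T cell markers summed to 5.01, 10.4 and 5.75 CPM in control libraries and 11.3, 5.54 and 11.5 CPM in conditional knockout libraries, and Cd8a was at 0 in control library 1. The summed levels of 7 NK and cytotoxic cell markers (2.96 to 6.14 CPM in control, 1.86 to 6.78 CPM in the conditional knockout) and of 4 B cell markers (18.8 to 35.8 and 12.0 to 78.3 CPM) were highest in conditional knockout library 1 and lowest in library 2. The 5 plasmacytoid dendritic cell markers summed to 4.70 to 8.25 CPM in control and to 13.2, 1.86 and 6.80 CPM in the conditional knockout, but Ly6d made up 8.20 CPM of the sum in library 1. Without Ly6d the other 4 summed to 4.24, 5.0 and 5.27 CPM in control libraries and 5.04, 1.57 and 3.42 CPM in conditional knockout libraries, so library 1 was not the highest, and 3 of the 4 tested markers of this list were lower, with a median of -0.35. For the sums of macrophage, NK, B and plasmacytoid dendritic cell markers, library 2 was below every control library. The gap was wide for macrophage markers (247 CPM, against 346 to 544 CPM in control) and B cell markers (12.0 CPM, against 18.8 to 35.8 CPM). The members' sum there, 744 CPM, lay next to the 745 to 766 CPM of control. The members' score there was -0.31, against -0.29, -0.21 and -0.25 in control. Neutrophil markers had another order, with 255, 797 and 367 CPM in control libraries and 476, 170 and 654 CPM in conditional knockout libraries. In bulk RNA, fewer cells of a type and less RNA per cell cannot be told apart, and the part of these markers in the members' values was not tested.

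Markers of the tissue's resident cells were uneven as well. Endothelial markers summed to 104 to 132 CPM in control and to 171, 106 and 127 CPM in the conditional knockout, and fibroblast markers to 1270 to 1690 CPM and to 2960, 767 and 1510 CPM. Sensory neuron markers, the defining markers of the ganglion, were present in each library, at 9440, 9370 and 10100 CPM in control libraries and 8100, 10500 and 9240 CPM in conditional knockout libraries, lowest where the members were highest. Satellite glia markers summed to 6120 to 6450 CPM in control libraries and 7110, 5490 and 7140 CPM in conditional knockout libraries, and markers of myelinating Schwann cells to 5760 to 7300 CPM and 9270, 3840 and 4980 CPM. Central nervous system markers were at 48.3, 118 and 49.0 CPM in control libraries and 50.1, 24.4 and 22.6 CPM in conditional knockout libraries, with Slc6a5 at 0 in conditional knockout library 2. In none of these lists did a marker pass edgeR after adjustment. At an unadjusted edgeR p under 0.05, 3 of 4 tested central nervous system markers were lower, against 3.09% of all tested genes. So were 2 of 11 sensory neuron markers (Pou4f1 and Rbfox3) and 1 of 5 satellite glia markers (Kcnj10). Of 7 endothelial markers 1 was higher (Emcn), and fibroblast and Schwann cell markers had 0. The part of these lists in the members' values was not tested either.

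**Figure D5:**
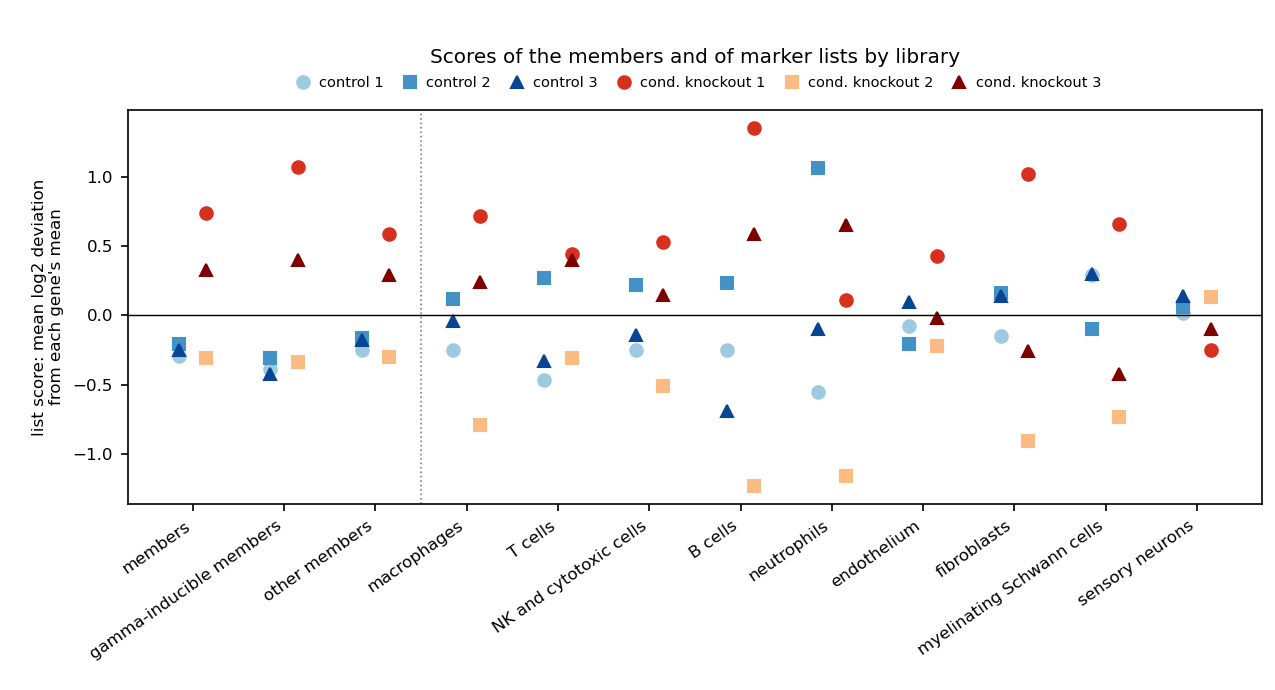
Score of each gene list in each library, the mean over its tested genes of log2(CPM + 0.5) minus the same gene's mean; the first 3 lists are the members, whole and split by interferon gamma, and the rest are cell type markers. Control points of the members lie within -0.29 and -0.21, while conditional knockout 1 is at 0.74, conditional knockout 3 at 0.33 and conditional knockout 2 at -0.31.

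The total count per library was between 21683083 and 31626625, highest in control library 3. Over all tested genes, log2 CPM correlated between libraries of a group with r of 0.983 to 0.988 in control and 0.965 to 0.98 in the conditional knockout, lowest between its libraries 1 and 2. Kif2a itself was at 86.4, 80.4 and 90.0 CPM in control libraries and at 69.8, 66.5 and 67.4 CPM in conditional knockout libraries, without overlap (log2 fold change -0.33 ± 0.10, edgeR p 0.00920, adjusted p 1.0). Its level in conditional knockout library 1 was 1.05 times that in library 2. The members' sum was 1220 CPM in library 1 and 744 CPM in library 2. These Kif2a values are of the whole ganglion, and a relation between them and the members was not tested.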

How the data were processed

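Poly(A) RNA of dorsal root ganglia was sequenced in 6 libraries, 3 per group, grouped and numbered as the sample titles give them. The authors deposited 1 gene table that holds raw read counts, per the file headers, beside the authors' own log2 fold changes, p-values and false discovery rates. Per the submitters' processing notes, cutadapt, STAR, DESeq2 and the mm10 build were used; the sources used here do not give their versions, the counting program or its strand setting. The 12 normalized per-sample columns of the table were not used.

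The test was run in R 4.3.3 with edgeR 4.0.16 (filterByExpr with a minimum count of 10, which kept 17759 of 22087 genes, TMM scaling, quasi-likelihood F test, robust dispersions, no covariate). Adjusted p-values are Benjamini-Hochberg over all tested genes, CPM uses TMM-scaled totals, and standard errors derive from the F statistic. The common biological coefficient of variation was 0.205. The fit was also run on simulated counts in which genes varied independently, unlike the members here, and no result rests on that run. Alternatives were DESeq2 1.42.0, limma-trend 3.58.1 (prior count 1), 2 other scalings, no filter, a mean of at least 1 CPM, the replicate number as a block, and each library left out in turn. Same-numbered libraries deviated from their group means with correlations of -0.152, -0.247 and -0.13 across genes. With 3 libraries per group, centred on their own mean, these values cannot decide whether the numbers mark a pairing. The labels do not state that they do, so the main fit has no block.

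The members, their 9 roles, the pathway genes and the marker lists were chosen from general knowledge with earlier results of these data known. Library values are given for the 2 tested members of smallest p and the most abundant member in each role and for those any alternative called, 24 in all. Other members have a log2 fold change or a range. The 2 genes of smallest p are named in each pathway list, except 1 gene not reported here. Gene positions and exon lengths come from GENCODE release M21 on GRCm38 and were matched for all 51 members; promoter windows come from RefSeq on GRCm38.p6.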

Additional observations from a re-analysis of the deposited data

How the results depend on the processing

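Against 4 genes called over the whole table with edgeR, DESeq2 called 28, the fit with the replicate block called 0, and leaving out 1 library at a time gave 0 to 13. Members called were 0, except 2 with DESeq2. With the replicate block the median log2 fold change of the members was 0.53 and 48 of 50 were higher, so it changed no call of a member. Over the other settings the median ranged from 0.30 to 0.88, with 46 to 49 members higher. DESeq2 size factors moved the score of control library 3 from -0.25 to -0.27 and that of conditional knockout library 2 from -0.31 to -0.30.

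Of the single-member values under an alternative, 642 kept their direction and their side of the threshold, 2 passed it (Gbp4 and Cxcl9 with DESeq2) and 6 turned sign. Ifih1 ranged from -0.091 to 0.58 when 1 library was left out, Eif2ak2 from -0.025 to 0.13 with -0.019 also below 0, Isg20 from -0.18 to 0.47 with -0.034 also below 0, and Trim25 from -0.25 to 0.028. These 4 genes lay within 1 standard error of 0 with all libraries. The cause was not tested. Depth limits Gbp6, with 4 to 8 counts in control libraries, and Cxcl9, with 4 to 15.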
